A study of Mus musculus with 7 samples.

Results

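The genes described here are 43 markers of pancreatic acinar cells. Digestive enzymes, proteins of the zymogen granule, protease inhibitors and the transcription factors of the acinar cell are among them. The genes were chosen by name, with earlier results of these data known. They were followed in RNA sequencing libraries of mouse pancreatic islets, small endocrine organs scattered in the pancreas whose β-cells make insulin. Of the 43 genes, 41 were matched by symbol in GENCODE M21 among the 21899 listed Ensembl identifiers, of which 93 had no symbol there. Amy2b and Ctrc were not matched, and no counts were read for them. The start region of Amy2b was part of the motif search described below. Counts of at least 10 on average were found for 36 genes. The amylase copies were added up, which left 31 acinar genes or sums for the comparison.

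The study followed second-generation (F2) males of wild-type C57BL/6 J mice. In the androgen exposure (AE) group, labelled hyperandrogenism, the founder dams were injected under the skin with dihydrotestosterone dissolved in benzyl benzoate and corn oil in late pregnancy, and the control dams received the solvent alone. The sons (F1), which in the AE group had been exposed in the womb, were mated with unrelated wild-type females, so the F2 males of both groups descended from the injected dams through their father and their own mothers were not injected. The labels list 3 control-F2 and 4 AE-F2 samples. Counts of 1 library per group were used, replicate 1 of control-F2 and replicate 4 of AE-F2, and the other 5 samples were not analysed here. The age of these animals and the number of animals behind each library are not given in the sources used here. With 1 library per group there was no test of the conditions and the spread of acinar RNA within a group could not be computed, so every difference describes these 2 libraries.

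Acinar cells make up most of the pancreas and surround the islets. They store inactive digestive enzymes in zymogen granules and release them into the ducts toward the gut, where enteropeptidase cuts trypsinogen to trypsin and trypsin then activates the other zymogens. The transcription factor PTF1, built from PTF1A, an E protein and RBPJL, switches on the enzyme genes, and BHLHA15 (MIST1) and NR5A2 help to maintain the secretory state. Islets are freed from this tissue by collagenase, and here they were separated from exocrine cells by centrifugation and picked by hand, according to the methods. In bulk samples, fewer acinar cells and less RNA per acinar cell cannot be told apart.

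Several members are near-identical copies, and their sequences show which values can be told apart. The first 90 coding bases of the trypsinogens and amylases are printed from the GENCODE M21 transcripts (GRCm38), read 5′ to 3′, with the place of the stretch in the genome. In the trypsinogens the stretch spans 2 coding exons, and capitals mark the codons for the run of aspartates and the lysine after which enteropeptidase cuts.
Prss2 (chr6:41521804-41522866, plus strand): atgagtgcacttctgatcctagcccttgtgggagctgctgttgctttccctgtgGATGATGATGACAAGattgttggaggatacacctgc
Try4 (chr6:41302285-41303333, plus strand): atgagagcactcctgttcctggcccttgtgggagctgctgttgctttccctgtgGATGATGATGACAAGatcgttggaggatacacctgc
Try5 (chr6:41313459-41314695, minus strand): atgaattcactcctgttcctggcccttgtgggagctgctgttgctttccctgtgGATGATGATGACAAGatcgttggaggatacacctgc
Try10 (chr6:41354192-41355501, plus strand): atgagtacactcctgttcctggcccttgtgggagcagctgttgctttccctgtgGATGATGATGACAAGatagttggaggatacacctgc
Prss1 (chr6:41458943-41461230, plus strand): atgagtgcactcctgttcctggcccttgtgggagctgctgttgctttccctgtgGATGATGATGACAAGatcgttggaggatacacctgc
Prss3 (chr6:41376918-41377597, minus strand): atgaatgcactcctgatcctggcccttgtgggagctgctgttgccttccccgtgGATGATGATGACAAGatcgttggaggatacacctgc

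The capitals fell on bases 55 to 69 in all 6 trypsinogens, counted from the A of the start codon, and were the same letters in each. Within these 90 bases Prss1 and Try4 differed by T6A alone, Try4 and Try5 by G5A, A6T and G7T, and Prss1 and Prss2 by C12T, T16A, G21A and C72T. Over the whole coding part of 741 bases, Try4 and Try5 differed at 19 bases and were 97.4% identical. Identity over the 15 pairs of trypsinogens ran from 88.7% to 97.4%.

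The amylases lie on chromosome 3, and the 90 bases printed for Amy2a5, within 1 coding exon, are the same in Amy2a1, Amy2a2, Amy2a3 and Amy2a4. Amy1, the salivary amylase, differs at 11 of them, which are in capitals.
Amy2a5 (chr3:113258593-113258682, minus strand): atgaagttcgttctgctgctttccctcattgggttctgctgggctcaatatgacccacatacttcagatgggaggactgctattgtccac
Amy1 (chr3:113569923-113570012, minus strand): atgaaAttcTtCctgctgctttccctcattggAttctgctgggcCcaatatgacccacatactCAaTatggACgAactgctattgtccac

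The depth was 16285888 counts in control-F2 and 21278513 in AE-F2, a 1.31-fold difference. Scaling used the TMM factors of edgeR, and a level is given in CPM, the counts per 1000000 counts of the library after this scaling. A log2 ratio is the AE-F2 level over the control-F2 level after adding 0.5 counts. The interval given with a ratio or a share is a 95% Clopper-Pearson interval, which covers counting error only. Endocrine markers were abundant, 17 hormone and endocrine genes taking 24.2% of all counts in control-F2 and 24.8% in AE-F2.

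Acinar RNA was a small part of both libraries and smaller in AE-F2. Together the acinar members had 77991 counts in control-F2, 0.479% of that library (interval 0.476 to 0.482), and 82337 in AE-F2, 0.387% (0.384 to 0.390). In scaled levels the sum was 4782 and 3875 CPM, and the log2 ratio was -0.30 (-0.32 to -0.29). Digestive enzymes carried 95.1% of these counts in control-F2 and 91.9% in AE-F2. Of the 31 acinar genes or sums, 29 had a log2 ratio below 0, against 49.8% of all 13627 genes past the minimum, and 2, Dmbt1 and Tff2, had one above 0, against 50.2%. The median over the 31 was -0.37, beside 0.000718 over all genes, and the values ran from -1.19 for Try10 to 1.91 for Dmbt1.

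At least 20% lower in the AE-F2 library were 18 of the 31, where 6.77% of all genes were. At least 25% higher was 1, Dmbt1, where 11.4% of all genes were. The counting interval lay below equality for 23 of the 31, against 13.4% of all genes, and above it for 1, against 13.4%. At 1.5-fold 2 were lower, Try10 and Cuzd1 (2.15% of all genes), and 1 was higher, Dmbt1 (6.23%). At 2-fold 1 was lower, Try10 (0.646% of all genes), and 1 was higher, Dmbt1 (3.2%). With at least 1000 counts on average there were 17 acinar genes or sums, and 11 of them were at least 20% lower, beside 2.54% of the 3471 genes at that depth. Their intervals lay below equality in 15 of 17, beside 24.9%. The 6 not at least 20% lower were the amylase sum, Prss2, Try4, Cpb1, Bhlha15 and Dmbt1.

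**Figure D1:**
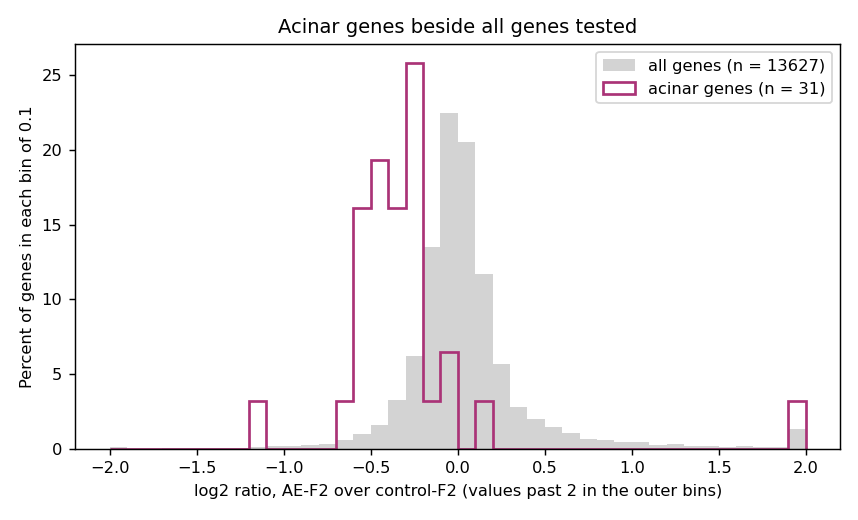
Histogram of the log2 ratio (AE-F2 over control-F2) for 13627 genes past the minimum count (grey) and for the 31 acinar genes or sums (outline), each as a percent of its own set in bins of 0.1. The acinar genes lie mostly left of 0, around their median of -0.37, and Dmbt1 is the acinar gene in the last bin on the right, which also holds all values past 2.

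Amylase, which cuts starch, was the largest single part of the acinar RNA. The amylase genes together had 30209 counts (1852 CPM) in control-F2 and 32658 (1537 CPM) in AE-F2. The log2 ratio of this sum was -0.27 (-0.29 to -0.25). Amylase therefore took 38.7% of the acinar counts in control-F2 and 39.7% in AE-F2.

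The single amylase copies differed in opposite directions between the libraries, 4 of them by more than their sum did. Amy2a5 had 477 CPM in control-F2 and 736 CPM in AE-F2, a log2 ratio of 0.63 (0.59 to 0.67). Amy2a2, Amy2a3 and Amy2a4 each had 361 CPM in control-F2 and 178 CPM in AE-F2, a log2 ratio of -1.02 (-1.08 to -0.96). Their deposited values were the same to the second decimal, 5891.70 for each in control-F2 and 3778.13 for each in AE-F2. In GENCODE M21 the transcripts of these 3 genes, on the minus strand of chromosome 3, are identical over their 3717 bases. The coding part of Amy2a5, 1527 bases, is identical to theirs as well, and its transcript of 3715 bases shares its first 1745 bases with them, past the end of the coding part at base 1682. Reads that lie wholly in the coding part therefore cannot be assigned to one of these 4 genes, and the values of the single copies are uncertain.

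Amy2a1, for which the annotation has a shorter transcript of 890 bases, had 290 CPM in control-F2 and 266 CPM in AE-F2. Amy1 had 24 and 28 counts. Without Amy2a5, the most abundant single gene, the log2 ratio of the acinar sum was -0.46 in place of -0.30. The sum over the 6 matched copies does not depend on how reads were divided between them. Any reads assigned to Amy2b, which was not matched, are not in this sum. The cause of the opposite directions of the copies was not tested.

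**Figure D2:**
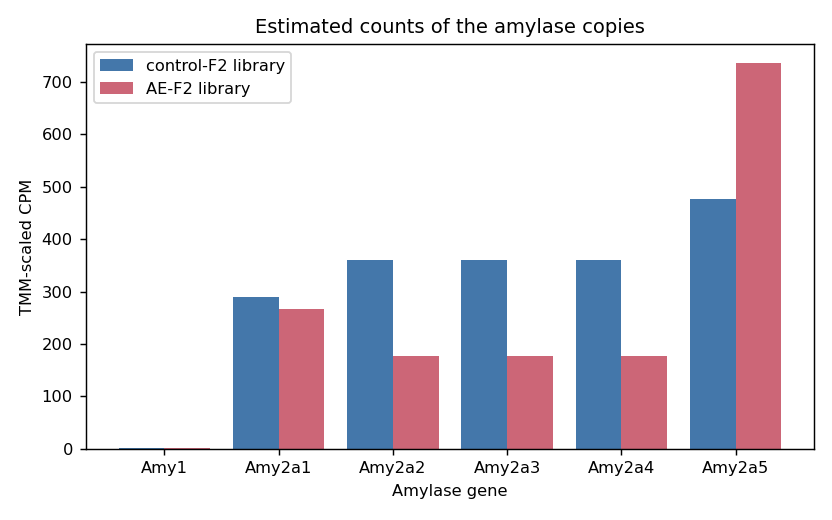
Bars give the TMM-scaled CPM of each amylase gene in the control-F2 library (blue) and the AE-F2 library (red), from 0. Amy2a5 is higher in AE-F2, at 736 against 477 CPM, while the 3 copies with identical transcripts share the same lower value, 178 against 361 CPM.

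The trypsinogens, inactive forms of trypsin, had a sum of 4377 counts in control-F2 and 4948 in AE-F2. Scaled, the sum was at 268 and 233 CPM, with a log2 ratio of -0.20 (-0.26 to -0.15). Prss2 held most of it, with 146 CPM in control-F2 and 123 CPM in the AE-F2 library (-0.25, -0.33 to -0.17). Try4 had 73.2 and 72.5 CPM, a log2 ratio of -0.01 (-0.12 to 0.10), an interval that included equality. Try5, which differs from Try4 at 19 coding bases, had 47.0 and 35.9 CPM (-0.39, -0.54 to -0.24).

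The remaining trypsinogens were rare. Try10 had 25 counts in control-F2 and 14 in AE-F2, with a log2 ratio of -1.19, the lowest of the 31, which had an interval from -2.28 to -0.22. Prss3 had 4 and 9 counts. Prss1, whose printed stretch differs from that of Try4 at 1 base, had 0 counts in both libraries, which allows up to 3 in each. The deposited estimates of Prss2 and Prss3 were whole numbers, and those of Try4 were 1194.05 and 1541.06, those of Try5 766.93 and 761.93 and those of Try10 25.02 and 14.01.

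The other zymogen proteases were lower in AE-F2. The chymotrypsins and elastases that passed the minimum count, 5 genes, had a summed level of 1159 CPM in control-F2 and 862 CPM in AE-F2, a log2 ratio of -0.43 (-0.46 to -0.40), and all 5 were at least 20% lower, beside 6.77% of all genes. Ctrb1, a chymotrypsinogen, had 405 and 320 CPM per kb of transcript, the highest level per kb in both libraries when each amylase copy is ranked alone, and the amylase sum was not ranked. Its scaled level was 356 and 281 CPM, a log2 ratio of -0.34 (-0.39 to -0.29). In the same ranking elastase Cela2a was second in the control-F2 library, with 345 CPM per kb, and behind Ctrb1 and Amy2a1 in AE-F2, with 241 CPM per kb. The log2 ratio of Cela2a was -0.52 (-0.57 to -0.47).

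The other elastases and the chymotrypsin-like Ctrl lay between these values. Cela1 had 211 and 154 CPM (log2 ratio -0.46), Cela3b had 109 and 81.9 CPM (-0.41) and Ctrl had 114 and 87.5 CPM (-0.37), with the control-F2 level first. Cela3a, a neighbour and close relative of Cela3b, had 1 count in control-F2 and 0 in AE-F2. The carboxypeptidases, which remove amino acids from the end of peptides, differed by 421 against 315 CPM in sum. Cpa1 had a log2 ratio of -0.52 (-0.59 to -0.45) and Cpb1 one of -0.30 (-0.37 to -0.22), and these intervals did not overlap.

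The fat-digesting enzymes had the lowest ratio of the enzyme groups, -0.47 on the log2 scale for their sum (-0.51 to -0.43), and all 6 of them were at least 20% lower, beside 6.77% of all genes. Pancreatic lipase Pnlip was the most abundant, with 364 CPM in control-F2 and 269 CPM in AE-F2, a log2 ratio of -0.44 (-0.49 to -0.38). Colipase Clps, the cofactor that anchors lipase to fat droplets, had 68.4 and 46.2 CPM. Its log2 ratio of -0.56 (-0.69 to -0.44) was the lowest among the genes or sums averaging 100 counts or more, with the amylase copies taken as 1 sum. Carboxyl ester lipase Cel had 198 and 139 CPM (-0.51).

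The lipase-related Pnliprp1 had 103 CPM in control-F2 and 73.3 CPM in the AE-F2 library (-0.49). For its relative Pnliprp2 the levels were 19.5 and 15.2 CPM (-0.35). Phospholipase A2 Pla2g1b had 76 and 75 counts, and its interval, -0.88 to 0.08, included equality. Beside the lipases, the ribonuclease Rnase1 had 62.9 and 47.0 CPM, a log2 ratio of -0.42 (-0.55 to -0.29). Tissue kallikrein Klk1, a protease that frees kinins, had 407 and 455 counts, which after scaling was a log2 ratio below 0 (-0.22, -0.42 to -0.02).

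The enzymes had similar but not equal ratios. The digestive enzymes other than amylases had a summed log2 ratio of -0.41 (-0.43 to -0.39). Of these 19 genes, 11 held -0.41 within their own counting interval. Prss2, Try4, Ctrb1 and Cpb1 lay above it, and Cela2a, Cpa1, Clps and Cel lay below it. Over the 18 enzymes or sums averaging 100 counts or more the ratios spanned 0.55 on the log2 scale, from -0.56 to -0.01. The spread between animals is not contained in these intervals.

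**Figure D3:**
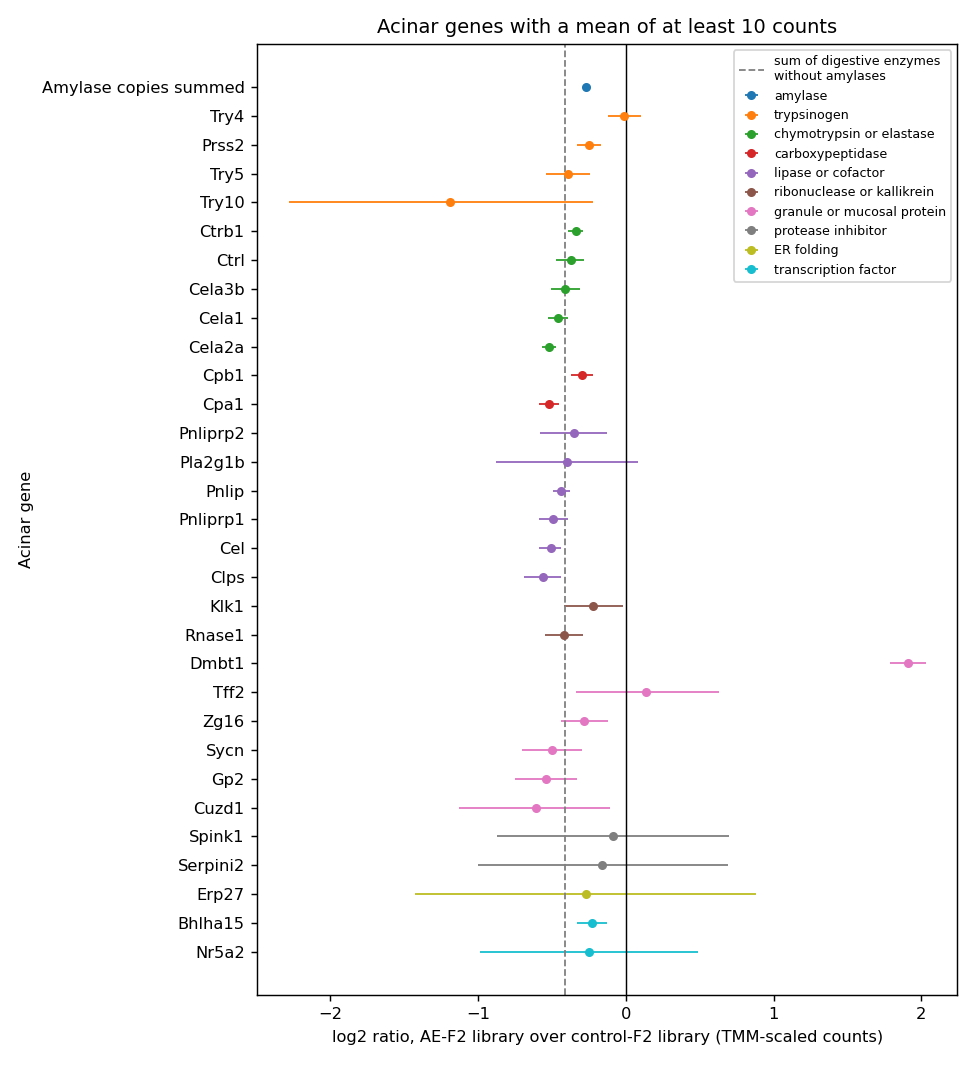
Points give the log2 ratio (AE-F2 over control-F2) for the 31 acinar genes or sums, coloured by role, and lines the 95% counting interval. The dashed line is the ratio of the summed digestive enzymes without amylases, -0.41, and most enzymes lie close to it, whereas Dmbt1 lies at 1.91.

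Among the granule and mucosal proteins, 4 of 6 had an interval below equality, beside 13.4% of all genes, and Dmbt1 had one above it, beside 13.4%. Syncollin (Sycn), a granule protein, had 26.9 CPM in control-F2 and 19.0 CPM in the AE-F2 library (log2 ratio -0.50). Gp2, the main glycoprotein of the granule membrane, had 24.1 and 16.6 CPM (-0.54). The granule lectin Zg16 had 38.1 and 31.3 CPM (-0.28), and Cuzd1, another granule protein, had 73 and 62 counts (-0.61, -1.13 to -0.11). The trefoil peptide Tff2, best known from gastric mucus, had 62 and 89 counts with an interval that included equality (-0.34 to 0.63).

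Dmbt1 encodes a large scavenger receptor glycoprotein that is cut to the granule protein muclin in mouse acinar cells and is also made by duct and gut epithelium. It had 680 counts in control-F2 and 3336 in AE-F2. Its level was 41.7 and 157 CPM, a ratio of 3.76-fold (3.47 to 4.09), the opposite direction to the enzymes. Per kb of transcript Dmbt1 was at rank 28 of the 41 listed members in control-F2 and at rank 23 in AE-F2. Without Dmbt1, an alternative added after its value was seen, the log2 ratio of the acinar sum was -0.35 and the median over the genes or sums -0.38.

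Markers of other cell types were read beside Dmbt1. The most abundant duct gene of the list, the keratin Krt7, had 247 CPM in control-F2 and 292 CPM in AE-F2. The summed duct list of 18 genes was 902 CPM in control-F2 and 939 CPM in AE-F2, a log2 ratio of 0.06 (0.03 to 0.09). Most of the sum came from Krt7, Anxa5, Krt8 and Krt18, at 247, 241, 128 and 120 CPM in control-F2. Krt19 had 0.675 CPM there, so the sum says little about the rarer genes. How far the abundant genes mark duct cells was not tested. Of the 14 duct genes with enough counts, 8 were lower and 6 higher. The interval lay below equality for 2, Krt8 (-0.11, -0.20 to -0.03) and Cldn7 (-0.22, -0.37 to -0.06), beside 13.4% of all genes, and above it for 4, beside 13.4%. Of the 14, 3 were at least 25% higher, beside 11.4% of all genes, and 0 were at least 20% lower, beside 6.77%. These 3 were the duct keratin Krt19 (11 and 35 counts), Muc1 (23 and 63 counts) and the water channel Aqp1 (43 and 125 counts), and with Krt7 they made up the 4 whose interval lay above equality. Apart from Krt7, Anxa5, Krt8 and Krt18, the duct genes named here were chosen after their values were seen. The duct regulator Sox9 (25 and 27 counts) had an interval that included equality, and Cftr had 5 counts in each library. In the AE-F2 library the B cell list of 8 genes was also higher, at 390 against 15.6 CPM, as was the mesenchyme list of 12 genes, at 432 against 348 CPM. The part of any of these cell types in the Dmbt1 value was not tested.

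The protease inhibitors and the folding protein were too rare for a comparison. Spink1, which blocks trypsin inside the pancreas, had 27 and 33 counts in the control-F2 and AE-F2 libraries. The serpin Serpini2 had 24 and 28 counts, and the endoplasmic reticulum protein Erp27 had 14 and 15. The intervals of all 3 included equality and were wide, from -1.43 to 0.88 for Erp27.

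The transcription factors stood at very different levels, and those of the PTF1 complex were close to 0 in both libraries. Ptf1a had 3 counts in control-F2 and 2 in AE-F2, and Rbpjl had 4 and 3, so no difference could be read for either. Bhlha15 had 1472 and 1635 counts, 90.3 and 76.9 CPM, a log2 ratio of -0.23 (-0.33 to -0.13). This interval lay narrowly above that of the summed digestive enzymes, -0.37 to -0.34. It overlapped those of the amylase sum (-0.29 to -0.25) and the trypsinogen sum (-0.26 to -0.15). Per kb, Bhlha15 was at 25.8 CPM per kb in the control-F2 library, against 0.122 for Ptf1a and 0.0999 for Rbpjl. Nr5a2 had 32 and 35 counts (-0.25, -0.99 to 0.49).

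**Figure D4:**
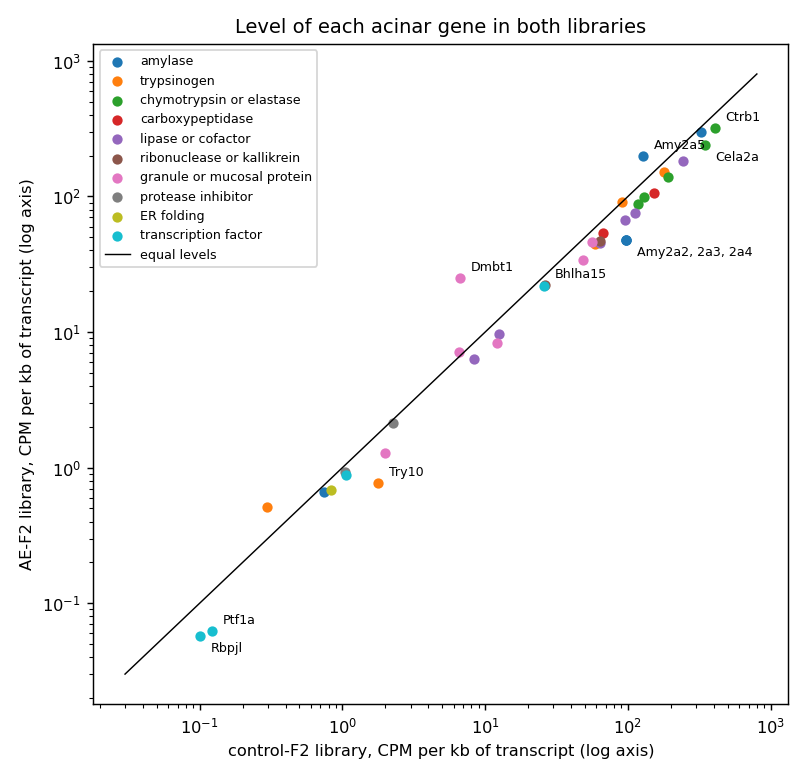
Level of each listed acinar member in CPM per kb of transcript, in the control-F2 library (x) and the AE-F2 library (y), on log axes, with the line of equal levels and colours by role. Prss1 and Cela3a are left out since a library had 0 counts. Most members lie just below the line, Dmbt1, Amy2a5, Tff2 and Prss3 lie above it, and Ptf1a and Rbpjl are at the lower end.

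The start regions of the acinar genes show the letters that the acinar factors read, and 6 of them are printed from the RefSeq promoter table (GRCm38.p6), which held 34 of the 43 members. They are 4 enzymes (Cela2a, Cel, Prss2 and Ctrb1) and the regulator Rbpjl, which hold both motifs of PTF1, and the regulator Bhlha15, which holds E-boxes alone. These 6 are examples and not the members with the most counts. Pnlip and Cela1, both with more counts than Cel and Prss2, did not hold both motifs. In the region searched Pnlip held a TTCCCA and no E-box, and Cela1 an E-box and no TTCCCA. Each stretch holds the 250 bases before the start of the gene, read 5′ to 3′ on the strand of the gene. Capitals mark the E-box CANNTG and the motif TTCCCA, or its reverse complement TGGGAA, which RBPJ proteins bind.
Cela2a (chr4:141826006-141826255, minus strand): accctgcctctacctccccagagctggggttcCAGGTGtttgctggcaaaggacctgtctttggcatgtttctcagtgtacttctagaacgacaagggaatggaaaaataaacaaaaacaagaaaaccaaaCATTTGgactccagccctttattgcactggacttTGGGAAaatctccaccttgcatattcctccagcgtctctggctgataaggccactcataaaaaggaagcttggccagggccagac
Cel (chr2:28563404-28563653, minus strand): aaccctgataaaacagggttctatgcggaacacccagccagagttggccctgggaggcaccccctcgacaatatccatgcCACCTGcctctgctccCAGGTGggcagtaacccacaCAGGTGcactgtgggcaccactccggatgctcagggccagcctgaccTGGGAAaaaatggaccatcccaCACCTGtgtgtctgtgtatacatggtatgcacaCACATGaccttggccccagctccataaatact
Prss2 (chr6:41521526-41521775, plus strand): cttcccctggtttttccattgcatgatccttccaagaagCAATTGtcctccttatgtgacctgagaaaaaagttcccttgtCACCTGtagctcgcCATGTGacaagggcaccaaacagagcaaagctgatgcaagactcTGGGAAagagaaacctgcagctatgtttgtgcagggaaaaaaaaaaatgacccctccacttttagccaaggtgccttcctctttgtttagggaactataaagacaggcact
Ctrb1 (chr8:111691011-111691260, minus strand): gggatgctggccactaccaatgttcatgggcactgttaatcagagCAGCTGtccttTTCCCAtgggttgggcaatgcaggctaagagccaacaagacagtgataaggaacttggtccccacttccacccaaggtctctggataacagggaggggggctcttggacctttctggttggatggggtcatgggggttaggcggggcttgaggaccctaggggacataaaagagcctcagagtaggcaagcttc
Rbpjl (chr2:164402944-164403193, plus strand): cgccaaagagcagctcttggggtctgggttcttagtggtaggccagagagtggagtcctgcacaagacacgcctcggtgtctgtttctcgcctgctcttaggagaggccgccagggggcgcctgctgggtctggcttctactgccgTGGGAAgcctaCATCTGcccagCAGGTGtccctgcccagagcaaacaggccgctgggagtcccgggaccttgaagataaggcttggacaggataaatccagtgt
Bhlha15 (chr5:144190036-144190285, plus strand): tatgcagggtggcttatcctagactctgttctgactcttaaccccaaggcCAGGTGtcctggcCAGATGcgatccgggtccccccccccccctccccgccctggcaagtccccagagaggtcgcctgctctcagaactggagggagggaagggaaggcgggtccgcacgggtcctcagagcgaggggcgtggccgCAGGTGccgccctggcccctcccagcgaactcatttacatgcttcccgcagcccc

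In Cela2a the E-box at 119 bases before the start lies ahead of a TGGGAA at 85 bases, and in Prss2 an E-box at 155 bases lies ahead of a TGGGAA at 111 bases. In Ctrb1 the E-box at 205 bases is followed by a TTCCCA at 194 bases. Rbpjl, itself a part of PTF1, holds TGGGAA at 104 bases and E-boxes at 93 and 82 bases, whereas Bhlha15 holds 3 E-boxes and no TTCCCA on either strand. The motifs were searched on both strands of 300-base windows, from 250 bases before to 50 bases after the start, and CACCTG is one form of CANNTG. An E-box was found in 83.3% of the 36 windows of the members and in 72.3% of all 32851 windows. CACCTG was found in 18 of the 36 and in 20.2% of all, TTCCCA in 47.2% and 25.6%, and AAGGTCA, the motif of NR5A2, in 11.1% and 4.72%. An E-box and a TTCCCA with at most 40 bases between them were in 12 of the 36 windows (33.3%), beside 8.51% of all windows. Several of these windows belong to near-identical copies and are not independent. The windows with such a pair included those of Ctrb1 and Cela2a, with 405 and 345 CPM per kb in control-F2, and those of Prss1 and Cela3a, with 0 and at most 1 count. Whether the pair goes with the level of a gene was not tested.

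Other acinar genes that are not members were read from a list of 23, of which 16 had enough counts. Their median log2 ratio was -0.24, 13 were lower and 3 higher, and 7 were at least 20% lower, beside 6.77% of all genes. At least 25% higher were 2, beside 11.4% of all genes. These 2, named after their values were seen, were the methyltransferase Gnmt (28 and 72 counts, log2 ratio 0.97, 0.33 to 1.67) and the granule GTPase Rab27b (22 and 49 counts, 0.76, 0.02 to 1.57). A further trypsinogen-like gene, 2210010C04Rik, had 179 CPM in control-F2 and 139 CPM in AE-F2, a log2 ratio of -0.37 (-0.44 to -0.29) like that of the enzymes. The intervals of the other 3 of the 4 most abundant genes of this list included equality. These were the granule GTPase Rab3d (192 and 187 CPM, log2 ratio -0.04), the muscarinic receptor Chrm3 (-0.02) and the creatine synthesis enzyme Gatm (-0.02).

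The other lists were read in the same way. The endocrine list had a median log2 ratio of 0.01, the endothelial list -0.04, the duct list -0.03 and the list of 18 genes of the endoplasmic reticulum and secretory pathway 0.06. Single endocrine genes ran from -0.28 to 0.46, the highest being the glucagon gene Gcg. The mesenchyme list had a median of 0.97 and the B cell list one of 4.99. Immediate early genes, which are induced quickly by many stimuli, were lower in AE-F2, with a sum of 4155 against 2136 CPM and 10 of 11 at least 20% lower, beside 6.77% of all genes. Their part in the acinar difference was not tested.

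**Figure D5:**
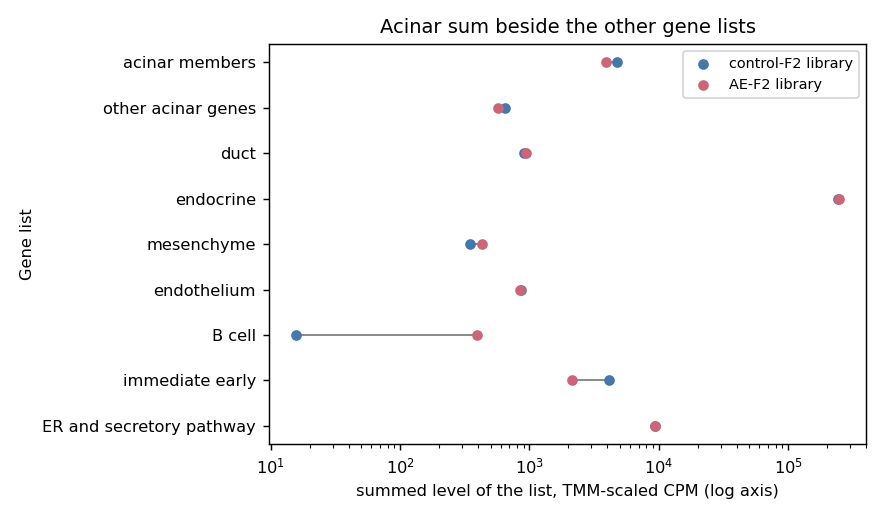
Summed level of each gene list in TMM-scaled CPM, on a log axis, in the control-F2 library (blue) and the AE-F2 library (red). The acinar sum is 4782 against 3875 CPM. The sums of the duct, endocrine, endothelial and secretory pathway lists nearly coincide, though some single genes in these lists differ more. The sums of the B cell and immediate early lists lie apart.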

How the data were processed

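Islet RNA of F2 males was enriched for mRNA with Oligo (dT) beads and sequenced on an Illumina instrument. The methods name HISAT2, whereas the submitters' processing notes list Bowtie2, RSEM and DESeq2. The genome build and annotation are not given in the sources used here. The authors deposited estimated counts per Ensembl gene, 1 file per library, not scaled for depth or length, and 8.56% and 9.28% of the values were not whole numbers.

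Estimated counts were rounded. Symbols, transcript lengths and coding sequences came from GENCODE M21 (GRCm38), which may differ from the authors' annotation, and 21806 of 21899 identifiers matched. Libraries were scaled with TMM in edgeR 4.0.16 (R 4.3.3). Of the listed genes, 13627 averaged 10 counts or more and entered the comparison. Intervals were computed with scipy 1.17.1, and PCR copies are not independent molecules. With 1 library per group, no test was run. All 43 members were accounted for, and of each other list up to 4 of the most abundant genes could be named, with exceptions stated. The members and lists were chosen with earlier results of these data known. On simulated libraries of these depths, 13610 genes were kept. Of the genes made 3-fold higher 100 of 100 were found past 2-fold, as were 100 of 100 made 3-fold lower. The genes to be changed averaged at least 100 counts, and the simulated counts held counting error only. The simulation therefore says nothing about smaller differences or the spread between animals. Alternatives were other scalings (DESeq2 1.42.0 among them), minimum counts, pseudocounts and thresholds, and leaving out members.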

Additional observations from a re-analysis of the deposited data

How the results depend on the processing

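Of 73 summary values under the alternatives 64 stayed within the interval of the reported value (or within 1.5 times for a count), 9 moved and none changed sign, and all 262 values of single members stayed within their intervals. The log2 ratio of the acinar sum, -0.30 as reported, was -0.29 with library totals without the 10 most abundant genes and with upper quartile factors, and -0.35 with the endocrine list as the reference, which also gave -0.31 for the amylase sum. It was -0.34 without amylases and trypsinogens, -0.46 without Amy2a5 and -0.35 without Dmbt1, the last chosen after seeing the data. The number of genes or sums past the threshold, with the amylase copies as 1 sum, was 18 at 20% lower, 2 at 1.5-fold and 1 at 2-fold, by the construction of the threshold. Across these scalings the median of all genes shifted by at most 0.04 on the log2 scale. No replicate could be left out, and 5 of 7 samples were not analysed here. No paired analysis was possible because only 1 library of each group was used. Depth limits the rare members, since those averaging 10 to 100 counts had intervals that included equality, except Try10 and Cuzd1.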
